A study of Mus musculus with 12 samples.

Results

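The genes described here are 8 that epidermal keratinocytes translate once they leave the basal layer: Krt1, Krt10, Krt77, Krt78, Krtdap, Sbsn, Dmkn and Calm4. They were chosen by name from the 22416 genes of the count tables, and all 8 were present in each of the 12 tables. The counts are of ribosome footprints, the short mRNA pieces protected by a translating ribosome, so that they report which mRNAs were being translated and not how much mRNA was there. No matched mRNA measurement was used here. The cells came from the back skin of female C57BL/6 mice, either young (56 to 60 days) or old (22 to 26 months), all of which received the elongation inhibitor cycloheximide before death. Live epidermal cells were sorted 1 to a well of 384-well plates with no gate for a subpopulation on 5 young and 5 old plates, which hold the comparisons. A plate of Sca-1-negative cells mixed both ages (P57 and P679, by postnatal day), and a plate from a P758 animal tested nucleases. Where plates shared an age and a postnatal day they were assumed to come from a single animal. That gives 3 young animals, P57 (1 plate), P59 (1 plate) and P60 (3 plates), and 3 old animals, P662 (2 plates), P722 (1 plate) and P758 (2 plates).

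The outer skin renews from a basal layer marked by keratins 5 and 14. When a basal cell detaches and moves up, it replaces these with keratin 1, a type II keratin, and keratin 10, its type I partner, which pair into the filaments of the spinous layer. Krt77 and Krt78 encode further type II keratins of differentiating epidermis. Krtdap (keratinocyte differentiation-associated protein), Sbsn (suprabasin) and Dmkn (dermokine) encode secreted proteins of the upper layers. Calm4 encodes an epidermal calcium-binding protein of the calmodulin family.

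In the GRCm38.p6 annotation 3 of the genes are neighbours on chromosome 7, where Sbsn (chr7:30732674-30756134), Dmkn (chr7:30763756-30781066) and Krtdap (chr7:30787905-30791089) span 58.416 kb. Krt1 (chr15:101845426-101850786) and Krt77 (chr15:101858731-101869706) are adjacent in the type II keratin cluster on chromosome 15, 7.944 kb apart. Krt78 (chr15:101946001-101996624) follows in the same cluster, with Krt76, Krt4 and Krt79 between it and Krt77. Krt10 (chr11:99385254-99397449) lies in the type I cluster on chromosome 11 and Calm4 (chr13:3837757-3838671) on chromosome 13. All 8 are annotated as protein-coding. RefSeq promoters of the same build, 250 bases before to 50 after the start, were found for 7 of the 8 genes (9 entries). They were searched on both strands for 3 motifs: the AP-1 site TGAGTCA, which reads TGACTCA on the other strand, the core letters of a promoter box TATAAA and the Grainyhead-like site AACNGGTT. Among 32544 promoters of this length 5.19% held TGAGTCA, 13.6% TATAAA and 2.09% AACNGGTT. Of the members, Sbsn, Dmkn (in each of its 3 entries) and Krtdap held TGAGTCA, and Krtdap and Krt10 held TATAAA. No entry held AACNGGTT in this window. The motif started 6 bases before the start site in Sbsn, 89 in the Dmkn entry printed here and 81 in Krtdap, and TATAAA started 30 bases before it in Krtdap and 26 in Krt10. A match describes the letters only. The entries of Sbsn, Krt10 and Krt78 and the Dmkn entry from chr7:30776155 lie inside the gene spans given above, not at their outer ends. The promoters of the chromosome 7 neighbours are given 5′ to 3′ because they share the AP-1 letters, that of Krt10 for its TATA letters, and that of Krt77, which held neither, because its counts are set against those of Krt10 below. Capitals mark the motif. They cover chr7:30751221-30751520 (Sbsn, plus strand), chr7:30763506-30763805 (Dmkn, plus), chr7:30787655-30787954 (Krtdap, plus), chr11:99389315-99389614 (Krt10, minus) and chr15:101869656-101869955 (Krt77, minus).
Sbsn: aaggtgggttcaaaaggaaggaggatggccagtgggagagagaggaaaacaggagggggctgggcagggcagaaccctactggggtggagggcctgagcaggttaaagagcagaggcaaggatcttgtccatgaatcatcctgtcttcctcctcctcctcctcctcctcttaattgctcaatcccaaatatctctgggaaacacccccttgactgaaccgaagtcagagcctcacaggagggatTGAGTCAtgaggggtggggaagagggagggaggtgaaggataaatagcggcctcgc
Dmkn: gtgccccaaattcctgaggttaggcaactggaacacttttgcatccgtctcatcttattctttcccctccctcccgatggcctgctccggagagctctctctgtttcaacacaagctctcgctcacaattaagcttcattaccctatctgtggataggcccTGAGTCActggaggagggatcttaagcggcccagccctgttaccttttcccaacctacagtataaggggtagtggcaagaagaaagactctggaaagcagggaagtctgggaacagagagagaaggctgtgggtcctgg
Krtdap: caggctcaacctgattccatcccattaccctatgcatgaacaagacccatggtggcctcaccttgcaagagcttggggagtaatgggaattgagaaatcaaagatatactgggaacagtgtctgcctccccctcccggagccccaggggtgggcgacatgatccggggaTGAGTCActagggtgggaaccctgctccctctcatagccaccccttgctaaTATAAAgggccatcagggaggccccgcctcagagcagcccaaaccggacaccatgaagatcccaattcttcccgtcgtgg
Krt10: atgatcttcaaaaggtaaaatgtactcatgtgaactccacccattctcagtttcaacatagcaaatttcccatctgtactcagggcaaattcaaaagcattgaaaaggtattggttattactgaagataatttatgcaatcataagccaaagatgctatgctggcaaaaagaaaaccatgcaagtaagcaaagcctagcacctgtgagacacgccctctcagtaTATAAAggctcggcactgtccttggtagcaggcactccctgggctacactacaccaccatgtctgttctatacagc
Krt77: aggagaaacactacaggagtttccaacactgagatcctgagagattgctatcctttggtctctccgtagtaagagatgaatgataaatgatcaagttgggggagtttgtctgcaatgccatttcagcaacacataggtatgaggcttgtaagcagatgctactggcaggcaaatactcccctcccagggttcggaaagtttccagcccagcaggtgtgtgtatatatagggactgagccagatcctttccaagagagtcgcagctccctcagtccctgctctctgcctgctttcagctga

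Of 1924 wells on the ungated plates, 1906 held at least 100 counts and were kept. Summed counts per animal were far from equal: 5230 in P57 (13 wells), 12371 in P59 (48), 2384294 in P60 (981), 70549 in P662 (199), 12886 in P722 (38) and 896688 in P758 (627). The shallow animals limit every comparison of ages. Levels are CPM, the summed counts of a gene scaled to a common library total, and no level is set against that of another gene, because gene lengths were not used here. Intervals cover counting error only. The files share 383 of 384 well barcodes, which mark positions on a plate and were not used to join cells.

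Across the animals the members were translated at levels that varied about as much within an age as between ages. Krt1 stood at 16635, 8973 and 5891 CPM in the young animals P57, P59 and P60 and at 16712, 12649 and 13720 CPM in the old animals P662, P722 and P758. Krt10 was at 32314, 14308 and 14236 CPM in the young and 31226, 16918 and 22505 CPM in the old, in the same order. In both genes the young animal P57, with 5 scored wells, lay with the highest old animal and the ages overlapped. Krt77 was at 20841, 6871 and 9214 CPM in the young and 17165, 5898 and 13062 CPM in the old. The lowest Krt77 value of all was thus an old animal and the highest a young one. Krt78 was at 191, 0 and 143 CPM in the young and 255, 78 and 280 CPM in the old, where 0 among the counts of P59 allows up to 243 CPM.

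Of the secreted proteins, Dmkn was the one with every old animal above every young one. Its levels were 1147, 808 and 911 CPM in the young and 1602, 1319 and 1945 CPM in the old, a mean of 956 ± 174 (SD, n = 3) against 1622 ± 313 CPM (SD, n = 3). Krtdap was at 1721, 647 and 841 CPM in the young and 1474, 1164 and 1522 CPM in the old, and Sbsn at 3633, 1132 and 1030 against 2183, 776 and 1570 CPM. P57 held the highest value of both genes, so that the ages overlapped. Calm4 was at 956, 404 and 272 CPM in the young and 723, 621 and 728 CPM in the old, overlapping for the same reason. All 3 old animals were above all 3 young in 4.16% of the genes tested.

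**Figure D1:**
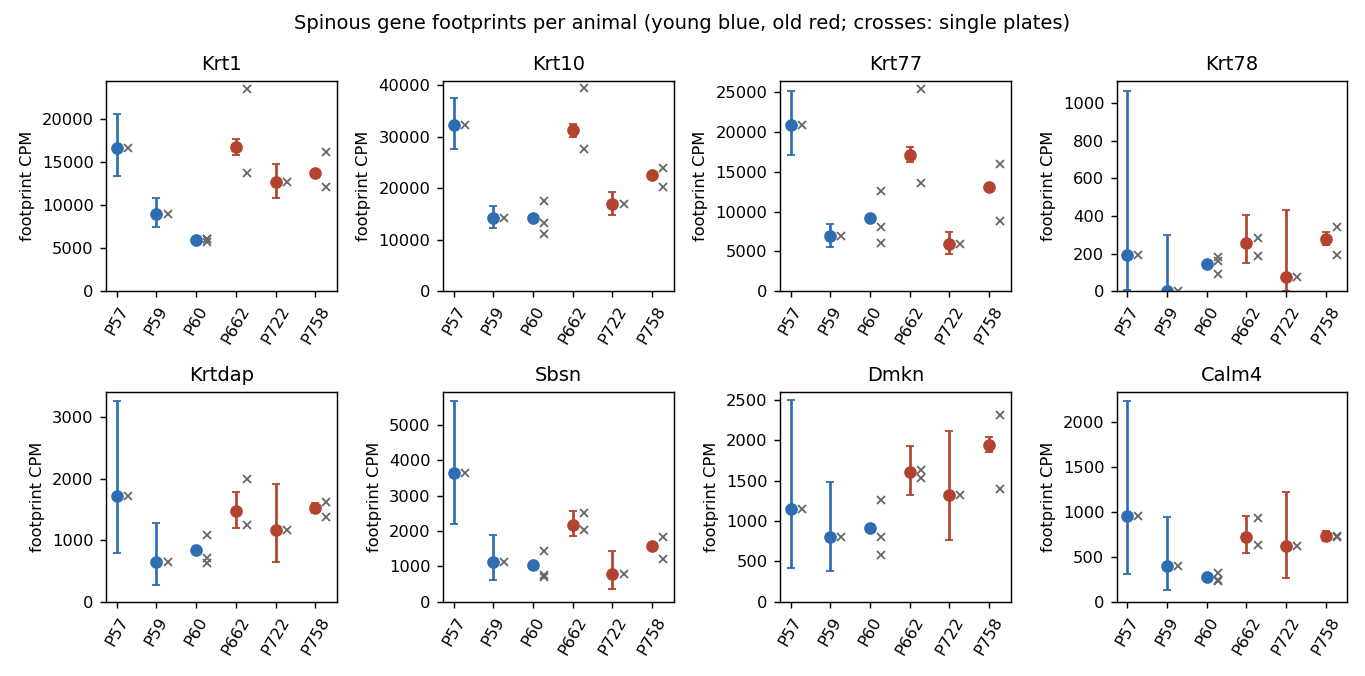
Level of each of the 8 genes in footprint CPM (vertical axis, from 0) for the 3 young animals (blue) and 3 old animals (red) on the horizontal axis. Large points are the summed counts of an animal with exact 95% intervals for counting error, crosses are its plates, and the ages overlap in every gene but Dmkn, where the young animals reach 1147 CPM and the old start at 1319 CPM.

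None of the members passed the test between the ages. In edgeR's quasi-likelihood test with Benjamini-Hochberg adjustment, 0 genes were called (0% of those tested), with 25 at an unadjusted p under 0.05. DESeq2 called 0 as well. Krt78 was too low to be tested, and the other 7 members each had an adjusted p of 0.998. The log2 difference, old minus young, was 0.89 for Dmkn (SE 0.30, unadjusted p = 0.0122 in edgeR) and 0.94 for Calm4 (SE 0.42, unadjusted p = 0.0480 in edgeR). For Krtdap it was 0.62 (SE 0.35), for Krt1 0.59 (SE 0.42) and for Krt10 0.34 (SE 0.46), with unadjusted p from 0.101 to 0.477 in edgeR. Krt77 was at 0.12 (SE 0.51) and Sbsn at -0.01 (SE 0.48). The difference was above 0 for 6 of the 7, with a median of 0.59, against a median of 0.03 and 53.3% above 0 over all tested genes. Since sums over wells mix how many spinous cells were sorted with how many footprints each gave, fewer cells and less translation per cell cannot be told apart in them.

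Single wells carried much of these sums. On the plate Young1, 3 of 333 wells held at least 50% of the member counts, on Old4 4 of 335 and on Old2 8 of 292. The wells richest in member counts held 24.3% of them on Young1, 25.7% on Old4 and 51.1% on Young10, the plate of P57. Giving each well equal weight parted the ages for Dmkn again and narrowly for Calm4, and the other members still overlapped. The mean over wells of Calm4 was 473, 351 and 170 CPM in P57, P59 and P60 and 488, 684 and 480 CPM in P662, P722 and P758. The value of P57, just under the lowest old one, rests on 5 counts. The same mean for Dmkn was 714, 740 and 548 CPM in the young and 1182, 1232 and 883 CPM in the old. On this scale 3.88% of the genes tested had all old animals above all young.

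Wells were placed on an order from basal to spinous by a score, the share of Krt1 and Krt10 counts among those of Krt1, Krt10, Krt5 and Krt14, where these came to at least 10 counts. Of 1413 scored wells 919 were low (under 0.2), 151 middle and 343 high (0.8 and above). A score of at least 0.5 was found in 47.6 ± 19.8% of scored wells in old animals (SD, n = 3) and 36.3 ± 20.6% in young (SD, n = 3). The difference of 11.3 percentage points did not pass a two-sided exact permutation test (p = 0.5), in which 3 against 3 animals cannot go below 0.1. The log2 ratio of Krt1 to Krt10 counts was -0.90, -0.42 and -0.71 in P662, P722 and P758 and -0.96, -0.67 and -1.27 in P57, P59 and P60. The ages overlapped, and the difference of 0.29 did not pass (p = 0.3, exact permutation test, n = 3 per age). Within 1 old animal the plates Old2 and Old4 differed by more than the ages did, at -0.34 and -0.99.

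Krt1 and Krt10 define the order, so their course along it is given by construction. The other 6 genes did not enter the score, and all 6 were higher in the last bin than in the first in P60 and P758, the animals with enough wells for 5 bins of equal width. Splitting wells by their own keratin counts allows a description but no test. Krt77 was at 602, 3268, 7042, 9814 and 39764 CPM from the first to the last bin in P60 and at 283, 2502, 4428, 12376 and 34886 CPM in P758. In these sums Krt77 was thus far higher in the last bin than in the one before it, in both animals. Its median over the wells of the last bin was well under the sum, at 16313 CPM in P60 and 13428 CPM in P758. Krtdap was at 22.9, 354, 292, 716 and 3782 CPM in P60 and 101, 477, 465, 1616 and 3950 CPM in P758, and Sbsn at 148, 626, 503, 803 and 4134 CPM and 98.3, 238, 492, 2764 and 4016 CPM. Calm4 was at 37.8, 163, 243, 314 and 1097 CPM in P60 and 75.4, 119, 437, 553 and 1844 CPM in P758. For these genes the levels of P60 in the middle bins stayed well under its last bin. Krt78 was at 4.3, 27.2, 81.1, 69.9 and 652 CPM in P60 and 4.6, 59.6, 54.7, 936 and 701 CPM in P758. In the fourth bin of P758, of 13 wells, 1 well of Old2 with 14626 counts and a score of 0.770 held 1210 Krt1 and 1076 Krt10 counts.

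Dmkn had the flattest course and was the secreted protein gene most often seen in low wells. It stood at 271, 626, 617, 1222 and 3161 CPM along the 5 bins in P60 and at 379, 1043, 1175, 4253 and 4402 CPM in P758. Its level in high wells was 11.7 times that in low wells in P60 and 11.6 times in P758, the smallest ratio of the 6 genes in P60 and, apart from Krt78, whose low-well counts were too few for a ratio, in P758. The ratio was 66.1 and 123 for Krt77, 165 and 39.3 for Krtdap, 28.0 and 40.9 for Sbsn, and 29.0 and 24.5 for Calm4. In middle wells Dmkn reached 26.6% of its high-well level in P60 and 43.2% in P758, the highest of the 6 in both. The same value was 18.0% and 16.4% for Krt77, 12.2% and 19.2% for Krtdap, 15.5% and 24.2% for Sbsn, 22.8% and 19.1% for Calm4 and 9.85% and 39.6% for Krt78. The order of the genes under Dmkn depended on single wells and on the summary. Without the deepest well of each class, a setting added after the data were seen, Dmkn was at 31.7% and 41.5%, while in P758 Sbsn went to 12.6% and Krt78 to 9.31%. With each well given equal weight Dmkn was at 49.8% and 52.8% and Krt78 came next, at 36.8% and 25.1%. With wells ordered by Krt1 and Krt5 alone Calm4 stood above Dmkn in P60, at 41.0% against 30.5%, and with Krt10 and Krt14 alone Krtdap did in P758, at 26.2% against 24.5%. By the median over wells Krtdap, Sbsn and Calm4 were at 0 in middle wells and Dmkn at 49.9% and 53.9%.

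**Figure D2:**
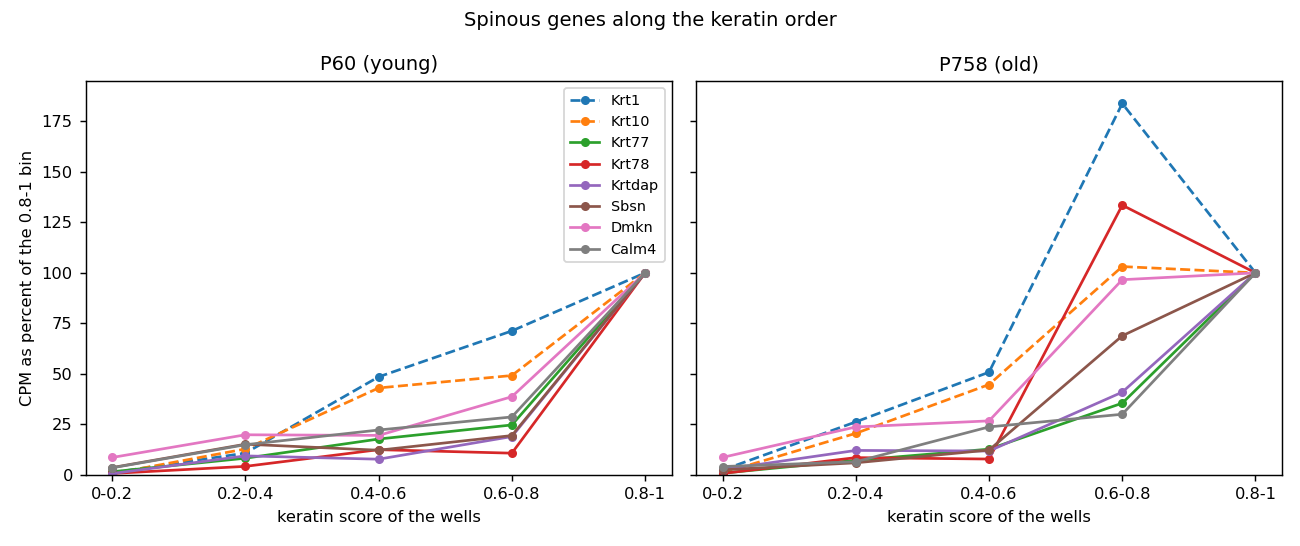
CPM in each of 5 score bins (horizontal axis, basal to spinous) as a percent of the CPM in the highest bin (vertical axis) for P60 and P758, with a line for each gene and dashed lines for Krt1 and Krt10, which define the score. In P60 each solid line rises most steeply into the last bin, with Dmkn the highest of them in the first bin at 8.57%. In P758 the fourth bin holds 13 wells, 1 of which is deep and rich in Krt1.

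At the far end of the order Sbsn differed most in P60 and P758 when counts were summed. High wells were divided at a score of 0.98, a limit chosen after the data were seen, into 82 top and 59 other wells in P60 and 100 and 48 in P758. Sbsn was at 5665 CPM in the top wells against 907 CPM in the others in P60, a ratio of 6.24, and at 4628 against 879 CPM in P758, a ratio of 5.27. The ratio was 3.92 and 4.09 for Krt78, 3.39 and 3.60 for Dmkn, 2.31 and 3.01 for Krt77, 1.99 and 1.66 for Krtdap and 1.66 and 1.46 for Calm4. Sbsn stood first in these 2 animals, and it still did without the deepest well of each part, at 6.25 in P60 and 3.30 in P758. With each well given equal weight its ratio was 3.49 and 1.99, and Krt78 stood first at 4.67 and 2.50. By plate the summed ratio of Sbsn was 7.57 on Young1, 4.78 on Young3, 4.05 on Young9, 3.73 on Old2 and 6.17 on Old4. On Old7, with 11 top and 5 other wells, it was 0.69. In the animal P662, with 31 top and 10 other wells, the ratio of Sbsn was 1.27 and that of Dmkn, the highest there, 1.97. Top wells were also deeper, with a median of 1846 counts against 1540 in P60 and 1312 against 892 in P758, and the part of depth in the ratio was not tested.

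Detection at equal depth gives the share of spinous wells in which each gene was seen. Since gene lengths were not used, it does not rank the genes by how much they were translated. The 170 of 195 old and 139 of 148 young high wells with at least 300 counts were thinned to that number, and the others left out. Of these, 134 old wells came from P758 and 136 young wells from P60. The values thus mainly set 1 old animal beside 1 young animal, and the wells are not replicates of an age. Krt77 was then found in 91.1% of the old and 94.5% of the young wells, and Krtdap in 53.6% and 49.2%. Dmkn was found in 42.9% and 33.6%, Sbsn in 37.5% and 34.8%, Calm4 in 36.0% and 20.9% and Krt78 in 10.5% and 9.6%. In low wells Dmkn was still found in 8.10% and 7.69% and Krt77 in 7.79% and 9.58%. Without thinning the shares over all 195 old high wells were 95.4% for Krt77, 74.9% for Krtdap and 69.7% for Dmkn. As a background from cells that should lack these genes, wells with at least 5 counts of T cell markers (13 old with 13740 counts, 21 young with 34294 counts) held 1 count each of Krt1, Krt10 and Sbsn in the old. In the young they held 4 of Krt10, 6 of Krt77 and 1 of Sbsn. Dmkn, Krtdap, Calm4 and Krt78 had no count in these wells at either age.

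Within high wells the members did not all move together. Spearman correlations of the wells' CPM were taken on the 7 plates with at least 20 high wells, the nuclease plate among them, and are given as a description, since the CPM of a well share their total and Krt1 and Krt10 chose the wells. Krt77 followed Krt10 most closely of the 28 pairs, with a median of 0.55 and a range from 0.41 to 0.61 over the plates. Its correlation with its chromosome neighbour Krt1 was the lowest of the 28, with a median of -0.09 and a range from -0.14 to 0.27. Krt1 and Krt10 themselves stood at a median of 0.49, from 0.10 to 0.62. Krt1 had medians of only 0.04 to 0.15 with Krtdap, Sbsn, Dmkn, Calm4 and Krt78, where Krt10 had 0.26 to 0.38. Wells of at least 1000 counts were taken on 6 plates, among them the nuclease plate with only 12 such wells, under the minimum of 20. In these deep wells the median was 0.63 for Krt10 with Krt77 and near 0 for Krt1 with Krt77, from -0.20 to 0.47. There Sbsn with Dmkn stood level with Krt10 and Krt77, at 0.63, and Krt10 had a median of 0.53 with the wells' total counts. Over all high wells the total counts had medians between 0.12 and 0.44 with the 8 members.

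**Figure D3:**
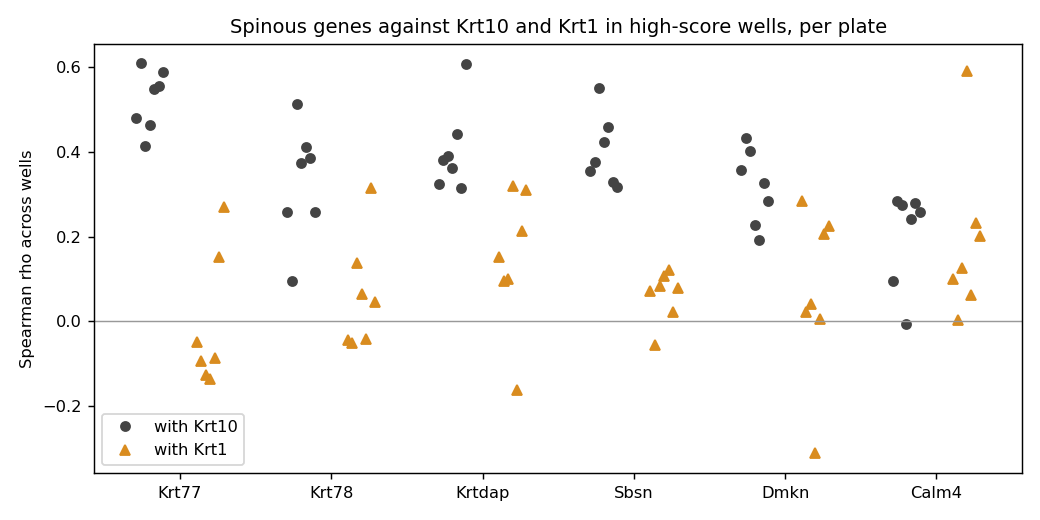
Spearman's rho across high wells (vertical axis) of each of the 6 members outside the score (horizontal axis) with Krt10 (circles) and with Krt1 (triangles), with a point for each of the 7 plates. Krt77 sits between 0.41 and 0.61 with Krt10 and between -0.14 and 0.27 with Krt1.

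The share of Krt1 in the Krt1 and Krt10 counts of a well showed a small set of high wells with little Krt1 relative to Krt10. Among 209 high wells with at least 50 counts of both together, the nuclease plate included, the median share was 35.3%, with quartiles at 25.8% and 46.4%. In 13 wells Krt1 made up under 10%, a limit chosen after the values were seen. The highest share inside it was 9.11% and the lowest outside was 10%. These 13 wells were of 2 kinds. In 5 of them the upper hair follicle genes Krt79, Krt17, Cst6, Defb6, Plet1, Lrig1, Sostdc1 and Klk10 came to at least 10 counts and 1% of the well, and the other 8 did not meet this rule.

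The 8 wells that were not follicle-marked, with at most 20 counts of these genes, were rich in Krt10 and Krt77. In their 80756 summed counts Krt1 was at 7814 CPM against 33512 CPM in the 196 remaining wells, while Krt10 was at 106172 against 60422 CPM. Low Krt1 relative to Krt10 is given by how the wells were chosen. Krt77 was at 114518 against 32820 CPM, Dmkn at 13225 against 2625 CPM, Sbsn at 12618 against 3130 CPM and Krt78 at 1907 against 633 CPM. In these sums Krtdap was at 6526 against 3624 CPM and Calm4 at 2043 against 1375 CPM. The ratio of Krt77 to Krt10 counts had a median of 1.02 over the 8 wells, from 0.893 to 1.39, of 0.883 over the 5 follicle-marked wells and of 0.440 over the 196. A well of Young1 with 34615 counts held 417 of Krt1, 4162 of Krt10 and 4148 of Krt77, and a well of Old4 with 26814 counts held 144, 2908 and 3618. These 2 deep wells carry most of the sums. With each well given equal weight Krt10 was at 77723 CPM in the 8 wells against 51344 CPM and Krt77 at 82585 against 24382 CPM. On this scale Sbsn was at 7434 against 2287 CPM, Dmkn at 7349 against 2100 CPM and Krtdap at 4724 against 3200 CPM. Calm4 was nearly level at 1426 against 1390 CPM.

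**Figure D4:**
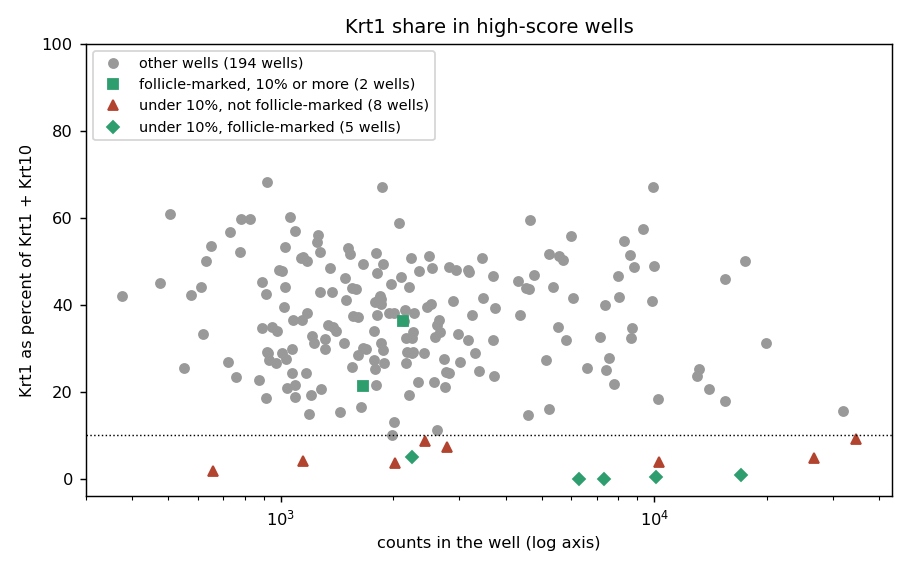
Krt1 as a percent of Krt1 and Krt10 counts (vertical axis) against the counts in the well (horizontal axis, log scale) for the 209 high wells with at least 50 counts of Krt1 and Krt10, and a dotted line at 10%. Of the 13 wells under the line 5 are follicle-marked (diamonds) and 8 are not (triangles), and the 8 span shallow and deep wells.

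The young wells with the follicle genes, of P60 but for 2 wells of P57, held hardly any Krt1. On the ungated plates 77 wells met the follicle rule, itself chosen after the data were seen, of which 40 were scored, 24 low and 11 high. The 45 young wells held 11 counts of Krt1 among 137230 (80.2 CPM) but 729 of Krt10 (5312 CPM) and 829 of Krt77 (6041 CPM). The other young wells stood at 6285 CPM for Krt1, 14818 CPM for Krt10 and 9420 CPM for Krt77. Krt1 was thus 1.49% of Krt1 and Krt10 counts in the young follicle-marked wells and 29.8% in the other young wells. Most of these Krt10 counts, 658, lay in the 7 high wells, where Krt1 had 8 counts. The 4 middle wells held 48 Krt10 counts and 1 of Krt1, and the 17 low wells, low in both by the score, 8 and 1. In the 32 old follicle-marked wells, with 40909 counts, it was 27.7%, against 37.7% in the other old wells. Of the 61 Krt1 counts in the old wells 33 lay in 1 well, and all 61 came from Old2. By plate the Krt1 share in follicle-marked wells was 2.00% on Young1, 0.824% on Young3 and 3.85% on Young9, 30.8% on Old2 and 0 on Old4, where Krt10 had 15 counts. On the nuclease plate, from the same postnatal day as Old2 and Old4, it was 29.6% over 6 wells, 1 of which held 46 of the 77 Krt1 counts. The 2 wells of P57 held no count of Krt1 or Krt10, and P59 had no follicle-marked well. The higher old share thus rests on P758 alone and the young share on P60 alone, and the difference between ages was not tested.

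Krt78 had 0 counts in the 178139 counts of all follicle-marked wells, which allows up to 16.8 CPM, against 151 CPM in the other young wells and 287 CPM in the other old wells. Sbsn was higher in the young follicle-marked wells with and without its richest well. It was at 3527 CPM in the young follicle-marked wells against 886 CPM in the others, and at 2763 CPM without the well that held 152 of its 484 counts. Krtdap was at 1129 against 825 CPM in the young, but at 574 CPM without 1 well of Young1 that held 86 of its 155 counts. Calm4 was at 357 against 269 CPM, and at 208 CPM without the same well. Dmkn was at 1232 against 892 CPM, and at 949 CPM without that well. In the old 1 well of Old2 with 7328 counts, rich in granular genes, held 75 of 104 Sbsn, 98 of 121 Dmkn and 39 of 57 Krtdap counts. With it Sbsn was at 2542 against 1563 CPM in the other old wells, Dmkn at 2958 against 1866 CPM and Krtdap at 1393 against 1519 CPM. Without it they were at 864, 685 and 536 CPM, all lower than in the other old wells, so that Sbsn and Dmkn turned with this 1 well. Sbsn was higher in follicle-marked wells on Young1 (3916 against 1279 CPM), Young3 (3709 against 509 CPM) and Young9 (1502 against 729 CPM), also without its richest well on each (1909, 2379 and 1066 CPM). On Old2 it was at 2947 against 1047 CPM and at 465 CPM without its richest well, and on Old4 at 639 against 1844 CPM. Krt79, the first of the follicle genes, lies between Krt77 and Krt78 on chromosome 15. How the authors treated reads that match several keratin genes is not stated in the labels or notes used, and its part in the keratin counts was not tested.

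**Figure D5:**
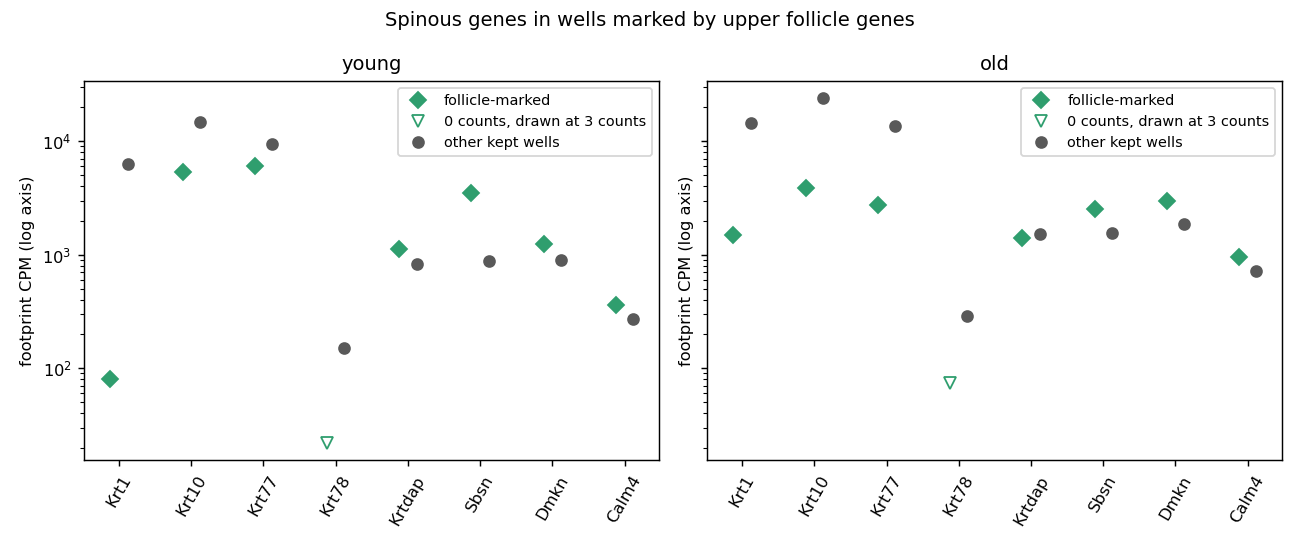
Footprint CPM of summed counts on a log axis (vertical) for the 8 genes (horizontal) in follicle-marked wells (diamonds) and in the other kept wells of the same age (circles), young on the left and old on the right. Krt1 sits at 80.2 CPM against 6285 CPM in the young and Sbsn at 3527 against 886 CPM, and the open triangles stand for Krt78, which had 0 counts and is drawn at the level of 3 counts.

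Leaving the follicle-marked wells out of the low wells moved the members both ways. In P60 the level of Sbsn in low wells went from 148 to 86.2 CPM, of Krtdap from 22.9 to 11.0 CPM and of Krt77 from 602 to 496 CPM, and Dmkn was near, at 261 CPM. Krt1 went from 254 to 265 CPM and Krt10 from 308 to 316 CPM. Of the 970 Krt77 counts in the low wells of P60, 1 well held 179. In P758 Sbsn went from 98.3 to 88.4 CPM and Krt77 from 283 to 279 CPM, while Krtdap went from 101 to 105 CPM and Krt10 from 526 to 537 CPM.

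At the spinous end, too, no member passed between the ages. The test on high wells had 3 old animals against P60 alone, because P57 and P59 had 3 and 4 such wells, and it assumes that the lone young animal varies like the old ones. In edgeR 26 of 4629 genes were called (0.562%), 20 higher and 6 lower in the old, and 0 of the 8 members, each with an adjusted p of 0.999. Krt1 and Krt10 chose these wells, and their differences of 0.09 (SE 1.17) and -0.47 (SE 1.10) are a description. The log2 differences, old minus young, were -0.74 for Krt77 (SE 1.11), -0.38 for Krt78 (SE 1.22), -0.58 for Krtdap (SE 1.24), -0.61 for Sbsn (SE 1.23), -0.24 for Dmkn (SE 1.26) and 0.20 for Calm4 (SE 1.31). Each error was larger than the difference beside it. Calm4 was at 1361, 2228 and 1844 CPM in the high wells of P662, P722 and P758 against 1097 CPM in P60. The value of P722 rests on 5 counts. In the untested P57 it was at 2690 CPM (5 counts in 3 wells), above every old animal, and in P59 it had 0 counts in 4 wells, so the ages overlapped. With each well given equal weight Calm4 was at 1740, 1598 and 1031 CPM on Old2, Old4 and Old11 and at 813, 887 and 852 CPM on Young1, Young3 and Young9. These young plates are all of P60. The nuclease plate, also from the old animal P758, stood with the young plates, at 848 CPM. In low wells 0 of 81 genes were called (0%), 4 had an unadjusted p under 0.05 in edgeR, DESeq2 called 0, and no member was high enough to be tested.

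Of 58 further genes of suprabasal and granular differentiation, 29 could be tested over all wells and 0 passed between the ages. Of the 29 differences 25 were above 0, with a median of 0.37, against 53.3% above 0 and a median of 0.03 over all tested genes. In high wells 5 of 47 tested were called, all higher in the old, while only 19 of the 47 differences were above 0, with a median of -0.15 against -0.07 over all tested genes. Over all tested genes 1992 of the 4629 differences in high wells were above 0, so the 19 of 47 lay near the share of all genes. Those called were Krt16 (a stress keratin), Flg and Flg2 (filaggrins of the granular layer), Tgm1 (the transglutaminase of the cornified envelope) and Cdsn (corneodesmosin). Most of their counts in P758 lay in single wells. Of the Flg counts in high wells 387 of 389 on Old2 and 170 of 172 on Old4 came from 1 well each, and of the Cdsn counts 29 of 29 and 73 of 73. P60 had no count of Flg, Flg2 or Cdsn in its high wells. Krt16 had 56 of its 59 counts on Old4 in 1 well, and 10 counts in P60. Granular genes made up 0.458% of the high-well counts of P758, 0.021% of those of P60 and 0.022% of those of P662. Only 2 high wells held over 100 granular counts, 684 on Old2 and 682 on Old4. Both were among the 13 wells with little Krt1 relative to Krt10, the first with the follicle genes (306 counts) and the second being the Old4 well of 26814 counts. Without them 7 genes were called, and of the 5 only Krt16 remained, with an adjusted p of 0.0100 in edgeR. Without the deepest high well of each plate instead, Krt16 was lost (adjusted p = 0.0762 in edgeR), Tgm1 had no test, and Flg, Flg2 and Cdsn stayed called, with Flg at an adjusted p of 0.0347. DESeq2 called 0 genes there, with 18 at an unadjusted p under 0.05.

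Along the order, 43 of the 58 genes had over 3 counts in the low and in the high wells of both P60 and P758. Of these 26 were over 2-fold higher in high than in low wells in both animals (60.5%), against 335 of 7103 genes in all (4.72%). Among cell contacts the desmosomal cadherin Dsc1 was higher by 4.23 and 4.48 on the log2 scale in P60 and P758 and Dsg1a by 2.58 and 2.32. The basal desmoglein Dsg3 was lower, at -2.62 and -3.63, one of 2 genes among these 43 over 2-fold lower in both, the other being Serpinb2. Jag2, outside the 43, was at 946 CPM in low and 20.1 CPM in high wells of P60. In P758 it was at 1049 CPM in low wells and had 0 counts in high wells. The plaque protein Dsp differed less, at 1.20 and 1.14. Regulators of differentiation were higher, with Grhl3 at 3.54 and 2.93, Zfp750 at 3.89 and 3.45 and Ovol1 at 2.96 and 3.56. Of the Notch receptors Notch3 was at 3.31 and 2.65 and Notch1 at 0.02 and -0.17. The lipid carrier Fabp5 was at 5.24 and 4.92 and the protease inhibitor Spink5 at 4.22 and 6.82. The granular genes Lor, at -0.14 and 6.90, and Ivl, at 2.18 and 5.21, differed between the sums of P60 and P758. Those of P758 include the 2 high wells with 684 and 682 granular counts, and these differences were not taken without the 2 wells.

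The genes whose course was most like the mean of the 6 members outside the score were sought over 22 sums of a plate and a score bin, among 6891 genes, by Pearson's r of log2(CPM + 5). These sums share plates and score bins, and r is a description. Elovl4, an elongase of very long fatty acids, came first at 0.953, going from 9.30 CPM in low wells to 733 CPM in high wells of P60 and from 25.1 to 605 CPM in P758. Ly6g6c (0.940), Kctd12 (0.938), Ankrd35 (0.935) and Evpl (0.926), the envelope protein envoplakin, followed. Skint6 and the transcription factor Grhl1 stood at 0.923 each, the alkaline ceramidase Acer1 at 0.920, the lipid transporter Abca12 at 0.916 and the metallothionein Mt4 at 0.913. The members themselves, each against the mean of the others, lay between 0.789 for Sbsn and 0.934 for Dmkn.

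The gated and test plates were set beside these values without a test. Of 52 kept wells of Sca-1-negative cells 4 could be scored, 36 had no member count and the members made up 1.10% of all counts (191 counts). In its 5 follicle-marked wells Krt1 had 0, Krt10 38 and Krt77 48 counts. The nuclease plate, with 230 kept wells, had 4.03% of its counts in the members, against 5.01% on Old2 and 5.89% on Old4 of the same postnatal day. A score of at least 0.5 was found in 42.6% of its 148 scored wells (exact Clopper-Pearson 95% interval 34.5 to 51.0%), with 34.5% on Old2 and 34.2% on Old4.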

How the data were processed

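Ribosome footprints were counted per gene and well on 12 plates. The values are whole-number counts, deposited by the authors as 1 table a plate. Per the submitters' processing notes fastp, Bowtie2, STAR, UMI-tools and featureCounts were used with GRCm38.p6, with versions and settings not given in the sources used. Wells with at least 100 counts were kept and summed per animal, and ages were compared with edgeR 4.0.16 in R 4.3.3 (TMM, filterByExpr, robust quasi-likelihood fit, Benjamini-Hochberg at 0.05). DESeq2 1.42.0, limma 3.58.1 (voom per plate, animals as a random block), other filters, other score and count minimums, thinning and leaving out each animal were alternatives. Single values were compared with exact permutation tests in scipy 1.17.1. The p-values measure the spread between the sums taken as animals. The fit was tested on simulated data. The members, the lists of 58 genes and of markers and the tests were chosen with earlier results of these data known. Genes named are the members, list genes that passed with examples of the list along the order chosen after their values were seen, and the 10 genes most like the members in course. The 3 list genes with the smallest p over all wells were Dsg1b, Dsc1 and Spink5, with unadjusted p of 0.0137, 0.0249 and 0.0354 and adjusted p of 0.998 each in edgeR.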

Additional observations from a re-analysis of the deposited data

Results flagged for a closer look

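Among 22 groups of 5 plates examined for a sample far from the others, 4 values stood apart, all of them the highest of the young plates and all on Young10, the plate of P57. Chance flags about 1 in 20 such groups. Sbsn was at 3633 CPM there, with the next young plate at 1433 CPM, and Calm4 at 956 CPM, with the next at 404 CPM. The 8 genes made up 7.74% of its counts, with 4.02% on the next plate. A score of at least 0.5 was found in 60% of its scored wells, with 25% on the next plate. Young10 had 13 kept wells, of which 5 were scored, and 1 well held 51.1% of its member counts.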

How the results depend on the processing

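Over 252 results of members in 36 combinations of a comparison and a setting, no adjusted p was under 0.05, the lowest being 0.110. Directions and counts of calls did depend on the processing, and the cause was not tested. The difference in wells with a score of at least 0.5 was -1.22 percentage points with at least 20 keratin counts and -6.91 with at least 500 counts per well, and from -0.0656 (without P662) to 23.1 when an animal was left out. The difference in the members' share of counts was -0.905 percentage points with at least 500 counts per well, and from -0.0328 to 2.25 when an animal was left out. Over all wells 111 genes were called without a filter and 45 among genes averaging 20 CPM or more. In high wells 0 were called by DESeq2, from a score of 0.6 and with at least 5 keratin counts, 8 with at least 3 wells per animal (chosen after the data were seen) and 7 without the 2 wells rich in granular genes, and from 11 to 60 when an animal was left out. In low wells 69 were called without a filter, 14 at 20 CPM, and from 0 to 24 when an animal was left out. Over all wells the old minus young difference (log2) turned for Krt10 at 500 counts (-0.0083, and -0.067 to 0.79 with an animal left out), for Krt77 at 500 counts (-0.064) and after thinning (-0.090, and -0.36 to 0.66), and for Sbsn with no filter (0.46), at 20 CPM (0.54), in DESeq2 (0.20), at 500 counts (0.084), in voom on plates (0.55) and without the deepest wells (0.26, and -0.52 to 0.61). In high wells it turned from a score of 0.6 and with at least 5 keratin counts for Krt10 (0.35 and 0.18), Krt77 (0.10 and 0.094), Krt78 (0.28 and 0.11), Krtdap (0.26 and 0.15) and Dmkn (0.44 and 0.35), from 0.6 for Sbsn (0.069), with at least 3 wells for Krt10 (0.012), Krtdap (0.054) and Dmkn (0.34), and without the deepest wells for Krt1 (-0.068). With an animal left out Krt1 ran from -0.036 to 0.39, Dmkn from -0.72 to 0.15 and Calm4 from -0.13 to 0.52. The high and low comparisons at 500 counts were not run, because fewer than 2 animals per age were left, and P60 could not be left out of the high wells, as no young animal would remain. Counts of 5230 to 12886 in 3 of the 6 animals limit what any of these comparisons can show. No paired analysis was possible because young and old plates share no replicate number.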
